A study of Mus musculus with 3 samples.

Results

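The 7 genes of prostaglandin and leukotriene synthesis (out of 31062 genes and transgenes counted) were followed across the cells of metastasis-bearing mouse brains: Ptgs1, Ptgs2, Ptges and Hpgds on the prostaglandin side, and Alox5, Alox5ap and Ltc4s on the leukotriene side. They were matched by gene symbol and chosen by their measured levels in these cell classes, so that their levels are given here as a description and without a test. The tests below concern 56 other genes of the same pathway.

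All brains came from female C57Bl/6 mice of 2 to 3 months that had received E0771 cells, a mouse mammary carcinoma line, through the carotid artery. Some mice were given antibodies to VISTA and PD-L1 together on alternate days from day 3 onwards, and the others were not; the labels do not say which hashtag belongs to which treatment, so treated and untreated brains were not compared. Each biological sample was 1 brain hemisphere, per the label of the transcript library, enriched for immune cells on a Percoll gradient, stained with 35 antibodies and marked with its own hashtag before 1 joint capture by CITE-seq, which reads transcripts and antibody tags of the same cell. The 8 hashtag samples are called samples 1 to 8, and the sources do not say that each is a separate animal, so that p-values measure the spread between hashtag samples only. A gated class pools all cells of its kind in these brains, and no brain without metastasis was analysed here.

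Prostaglandins and leukotrienes are both made from arachidonic acid that phospholipases free from membranes. The cyclooxygenases, of which Ptgs1 encodes the form usually present at rest and Ptgs2 the form induced in inflammation, turn it into prostaglandin H2, from which terminal synthases make individual prostaglandins: Hpgds makes prostaglandin D2 and Ptges the inducible share of prostaglandin E2. Alox5 encodes 5-lipoxygenase, which with its activating protein, encoded by Alox5ap, makes leukotriene A4; leukotriene C4 synthase (Ltc4s) adds glutathione to it, and Lta4h hydrolyses it to leukotriene B4 instead.

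Of 12908 barcodes 12334 passed the filters, and 9896 of these carried 1 hashtag. Singlets were sorted by their summed marker UMIs into 4507 carcinoma cells, 61 neutrophils, 440 macrophages, 859 monocytes and 383 microglia, with 373 endothelial cells, 878 T cells and 348 NK cells outside these 5 classes and 1942 singlets (19.6%) in no gate. Per class and sample, counts were summed where at least 10 cells were present, which left 8 samples for carcinoma cells, 3 for neutrophils (samples 5, 6 and 7, with 13 to 18 cells each) and 7 each for macrophages, monocytes and microglia (samples 2 to 8). Depth differed widely: the median barcode held 84492 UMIs in carcinoma cells, 2886 in neutrophils, 13155 in macrophages, 9529 in monocytes and 7648 in microglia. Levels are in CPM, a gene's UMIs scaled by all UMIs summed in that class and sample. They come from 3' tags and are compared between classes for the same gene, not between genes, and a class level cannot tell fewer expressing cells from less RNA per cell.

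The antibody tags, which no gate used, were read beside the names. Ly6G, a neutrophil surface protein, had a median of 331 per 10000 tags in neutrophils, against 8.0 in monocytes; CX3CR1, abundant on microglia, had 54.8 in monocytes, against 487 in microglia; and the class II antigen tag had 2122 in macrophages, against 295 in microglia. Monocyte tags ran against the name. Ly6C, a monocyte surface protein, had 1906 in monocytes, against 2461 in microglia, and CCR2 had 7.59 in monocytes, against 25.1 in microglia. The tags F4/80 and CD64 did not set macrophages above microglia, with 79.6 and 19.3 in macrophages, against 133 and 51.6 in microglia. Each value is a share of all tags of its class, so it also moves with the other tags. Carcinoma cells carried 4904 per 10000 tags of CD44 and 317 of the leukocyte protein CD45, which stood at 3774 in macrophages. Of the 6 epithelial markers fixed for carcinoma cells, however, only Krt8 was above 10 CPM (median 380 CPM), Krt18 stood at 4.15 CPM and Epcam at 0.213 CPM. The name carcinoma cells thus rests on Krt8 and the tags alone. All 9 microglia markers exceeded 10 CPM in microglia, all 8 monocyte markers did so in monocytes, all 7 macrophage markers in macrophages, and all 12 neutrophil markers in neutrophils. The gates sum these same markers, so their presence is no support for the names. In neutrophils 6 of the 8 monocyte markers also exceeded 10 CPM. Chil3 (median 3002 CPM in neutrophils, 1661 CPM in monocytes), Hp (1819 and 606 CPM) and Clec4e (1438 and 642 CPM) were higher in neutrophils, and the other monocyte markers lower. The macrophage markers, complement genes among them, were as abundant in microglia (24851 to 31905 CPM summed) as in macrophages (21891 to 30333 CPM), so that macrophages are set apart from microglia by the limit on microglia markers.

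The members lie on 5 chromosomes (RefSeq, build GRCm38.p6): Ptgs2 on chromosome 1 (150100031 to 150108234), Ptges (30889471 to 30931020) and Ptgs1 (36216742 to 36258593) on chromosome 2, Alox5ap on chromosome 5 (149265004 to 149288153), Hpgds (65117293 to 65144981) and Alox5 (116410071 to 116461178) on chromosome 6, and Ltc4s on chromosome 11 (50236461 to 50238532). Annotated non-coding genes overlap Ptges and Alox5, and the sources do not say whether counting kept strands apart. Promoter windows, from 250 bases before to 50 after an annotated start, were available in RefSeq for 6 members. For Ptgs1 and Ptges the window lies well inside the gene limits given above, away from the outer start of the gene. The Hpgds window also lies inside its gene limits, at their edge. Only 1 window was read for each gene. Shown are those of the 2 cyclooxygenases, whose levels ran in opposite directions between monocytes and microglia, and of the 2 synthases that were highest in microglia. Each reads 5′ to 3′ on its own strand, and capitals mark matches to the motifs listed after the sequences.
Ptgs1 (chr2:36230176-36230475, + strand): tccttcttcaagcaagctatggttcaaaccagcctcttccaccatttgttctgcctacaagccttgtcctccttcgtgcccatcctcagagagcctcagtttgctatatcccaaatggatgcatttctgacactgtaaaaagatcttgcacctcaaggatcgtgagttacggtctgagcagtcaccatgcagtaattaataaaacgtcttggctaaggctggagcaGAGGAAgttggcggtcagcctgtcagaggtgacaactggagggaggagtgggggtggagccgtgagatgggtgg
Ptgs2 (chr1:150099781-150100080, + strand): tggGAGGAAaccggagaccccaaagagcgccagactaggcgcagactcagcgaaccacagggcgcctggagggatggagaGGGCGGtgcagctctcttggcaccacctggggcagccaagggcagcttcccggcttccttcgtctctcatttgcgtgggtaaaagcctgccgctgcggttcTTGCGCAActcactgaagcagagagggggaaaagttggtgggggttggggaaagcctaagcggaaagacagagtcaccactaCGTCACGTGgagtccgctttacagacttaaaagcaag
Hpgds (chr6:65144681-65144980, - strand): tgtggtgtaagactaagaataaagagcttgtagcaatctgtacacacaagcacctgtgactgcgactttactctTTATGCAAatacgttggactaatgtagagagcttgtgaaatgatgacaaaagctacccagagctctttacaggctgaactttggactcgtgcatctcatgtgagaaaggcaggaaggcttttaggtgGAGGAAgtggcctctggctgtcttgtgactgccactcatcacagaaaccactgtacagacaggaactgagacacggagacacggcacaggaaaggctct
Ltc4s (chr11:50238483-50238782, - strand): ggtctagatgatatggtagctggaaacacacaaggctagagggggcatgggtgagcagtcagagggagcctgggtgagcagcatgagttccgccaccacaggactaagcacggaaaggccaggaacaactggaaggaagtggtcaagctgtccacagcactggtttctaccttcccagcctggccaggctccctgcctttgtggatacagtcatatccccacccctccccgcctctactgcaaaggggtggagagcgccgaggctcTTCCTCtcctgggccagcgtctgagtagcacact

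The 8 motifs searched on both strands were the PU.1 core GAGGAA (present in 28.3% of all 32851 RefSeq promoter windows), C/EBP TTNNGCAA (10.8%), the CRE core CGTCA (20.8%), the E-box CACGTG (7.15%), the TATA box TATAAA (13.6%), the NF-kB motif (20.7%), AP-1 TGANTCA (7.81%) and the GC box GGGCGG (35.7%). The PU.1 core, bound by a factor that myeloid cells depend on, was present in each of the 6 windows, that of Ptges included, which was highest outside the myeloid classes. The Ptgs2 window also held a C/EBP match (TTGCGCAA), a GC box, and a CRE core and an E-box that overlap each other in the run CGTCACGTG. The Hpgds window held a C/EBP match of other letters (TTATGCAA), and the windows of Ptgs1 and Ltc4s held no match but the PU.1 core. A match describes letters, not binding, and a missing match says only that those letters are not in this window.

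The 5 pairs of classes were compared within hashtag samples. Between monocytes and microglia 28.7% of the 6818 genes tested were higher and 31.5% lower in monocytes (edgeR, adjusted p under 0.05). The same shares were 26.2% and 28.4% for macrophages against microglia, 19.9% and 20.2% for macrophages against monocytes, 8.37% and 13.3% for neutrophils against monocytes, and 46.7% and 30.9% for carcinoma cells against macrophages. With so many genes apart, a separation of a member between 2 classes is nothing particular to it. The low-count filter was passed by 6, 5, 3, 4 and 6 of the 7 members in these comparisons, in the order given.

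Ptgs1 was a microglial transcript among these classes. It had 0.233, 0.509 and 0.715 CPM (lowest, median and highest sample) in carcinoma cells. The 3 neutrophil samples had 33.4, 82.6 and 158 CPM, from 2, 6 and 8 UMIs. It had 2.66, 8.05 and 10.8 CPM in macrophages, 0, 2.03 and 3.71 CPM in monocytes, and 274, 409 and 464 CPM in microglia. Every microglia sample lay above every sample of the other 4 classes. The mean was 1.93 ± 1.44 CPM in monocytes and 383 ± 66.8 CPM in microglia (SD, n = 7 each), a log2 difference of -7.24. Endothelial cells, at 5.12, 16.3 and 34.002 CPM, followed neutrophils in the order of medians, and their ranges overlapped.

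Ptgs2 ran the other way. It had 0.233, 0.967 and 1.32 CPM in carcinoma cells; 496, 1923 and 2036 CPM in the 3 neutrophil samples; 137, 162 and 436 CPM in macrophages; 463, 564 and 625.3 CPM in monocytes; and 12.3, 39.2 and 141 CPM in microglia. Monocyte values all exceeded those of macrophages and of microglia. Macrophages lay above microglia within 6 of 7 samples, the exception being sample 3, with 137 CPM in macrophages and 141 CPM in microglia. Neutrophils lay above monocytes in samples 5 and 6 and below them in sample 7. The log2 difference was 3.90 for monocytes against microglia and -1.49 for macrophages against monocytes. Endothelial cells had 38.2, 193 and 459 CPM, a range that overlapped that of macrophages, and T cells had 0, 13.9 and 35.8 CPM.

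The microglia of sample 3, 19 cells, also carried the most RNA of other myeloid cells. Their neutrophil markers summed to 1237 CPM, against 86.3 to 152 CPM in the microglia of the other 6 samples, and their Ms4a7, a macrophage gene, reached 842 CPM against 0 to 165 CPM. Their Il1b, an inflammatory cytokine, stood at 1510.4 CPM, against 49.0 to 689 CPM, and their microglia markers at 5228 CPM, against 5548 to 8909 CPM. Their part in the Ptgs2 value was not tested. In macrophages Ptgs2 was highest in samples 7 (436 CPM) and 5 (323 CPM). Sample 7 also had the highest monocyte marker sum, 3246 CPM, against 1798 to 2280 CPM in the other 6. Sample 5 had a sum of 2103 CPM, below samples 3 (2280 CPM) and 8 (2121 CPM), whose Ptgs2 was lower. What set samples 7 and 5 apart was not tested.

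**Figure D1:**
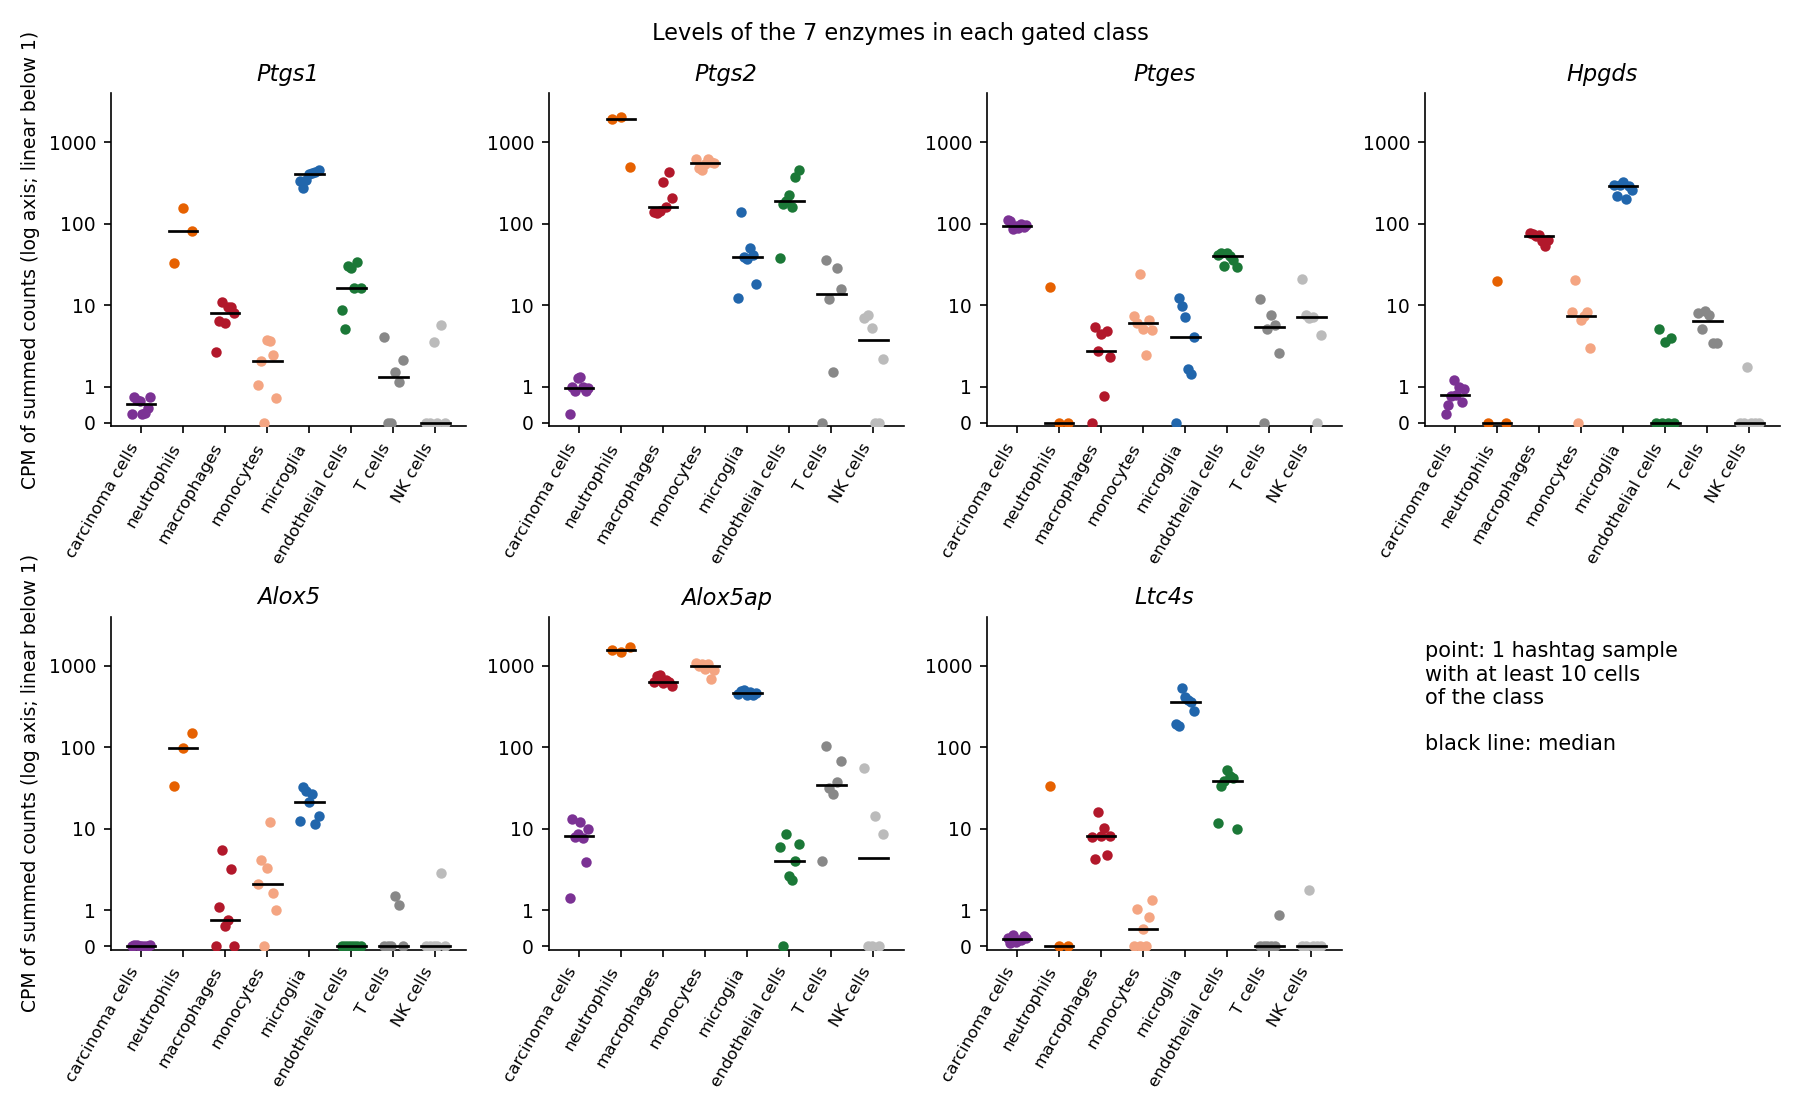
CPM of summed counts (vertical axis, logarithmic above 1 and linear below) of the 7 genes in 8 gated classes; a point is 1 hashtag sample with at least 10 cells of the class and a black line the median. Ptgs1, Hpgds and Ltc4s were highest in microglia, Ptges in carcinoma cells, and Ptgs2, Alox5 and Alox5ap in neutrophils, of which there were 3 samples.

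Among the terminal synthases, Hpgds was present in microglia and, at a lower level, in macrophages. It had 0.233, 0.759 and 1.19 CPM in carcinoma cells, 52.8, 70.1 and 77.1 CPM in macrophages, 0, 7.26 and 20.3 CPM in monocytes, and 200.4, 290.4 and 328 CPM in microglia; in neutrophils 1 UMI was counted in all. The 3 ranges of microglia, macrophages and monocytes did not overlap. Macrophages stood between the other 2 classes, with log2 differences of -1.91 against microglia and 3.03 against monocytes. T cells had 3.42, 6.30 and 8.45 CPM, a range that overlapped that of monocytes.

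Ptges was a carcinoma transcript here, in contrast to Ptgs1, Ptgs2 and Hpgds, each of which had medians under 1 CPM in carcinoma cells. It had 85.3, 94.6 and 113 CPM in carcinoma cells, 0, 2.70 and 5.37 CPM in macrophages, 2.42, 6.10 and 24.4 CPM in monocytes and 0, 4.08 and 12.1 CPM in microglia; 1 UMI was counted in neutrophils. The spread among the 8 carcinoma samples was small, with a mean of 96.9 ± 9.68 CPM (SD). The log2 difference of carcinoma cells against macrophages was 4.74, and all 7 paired samples were higher in carcinoma cells. Endothelial cells came next, with 29.3, 40.4 and 43.7 CPM, a range that touched neither carcinoma cells above nor any immune class below. Without thinning, 97.4% of 4507 carcinoma cells held a Ptges UMI. Ptgs2 was found with it in 382 cells (8.48%) and Ptgs1 in 117 cells (2.60%). The products of the separate shares were 8.37% and 2.57%, so the joint shares say little beyond the share of cells with Ptgs2 or Ptgs1. After thinning to 2000 UMIs, Ptgs2 was found with Ptges in 5 cells and Ptgs1 in 0 cells.

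Markers of other classes were counted in each class beside the members, since droplets can hold free RNA, whose part in the levels was not tested. Ptges UMIs per Krt8 UMI were 0.251 in carcinoma cells (95% exact interval 0.248 to 0.254, counting error only). The ratio was 0.324 in macrophages (0.190 to 0.530), 0.520 in monocytes (0.363 to 0.737), 0.319 in microglia (0.166 to 0.581) and 4.17 in endothelial cells (2.88 to 6.17). It was 0.609 in T cells (0.366 to 0.995) and 1.38 in NK cells (0.504 to 3.94). The pooled intervals of macrophages and microglia held the carcinoma ratio, and those of monocytes, endothelial cells, T cells and NK cells lay above it. By sample the ratio ran from 0.229 to 0.394 in carcinoma cells and from 0.182 to 1.17 in monocytes, so these ranges overlapped. The gates set a lower limit on summed carcinoma markers, Krt8 among them, in carcinoma cells and an upper limit in the immune classes. These limits thus act on the base of these ratios, except in endothelial cells. Per UMI of the microglia marker P2ry12, the ratio of Ltc4s was 0.401 in macrophages (0.292 to 0.546) and 0.427 in microglia (0.401 to 0.456). That of Ptgs1 was 0.374 in macrophages (0.269 to 0.513) and 0.496 in microglia (0.466 to 0.527). That of Hpgds was 3.31 in macrophages (2.74 to 4.004) and 0.316 in microglia (0.294 to 0.339). The intervals of the 2 classes overlapped for Ltc4s and Ptgs1 and not for Hpgds. In monocytes the ratio was 0.0972 for Ltc4s (0.0377 to 0.211) and 0.264 for Ptgs1 (0.150 to 0.442), both intervals below those of microglia. For Hpgds it was 0.931 (0.657 to 1.32), above microglia. Endothelial cells held 148 Ltc4s, 81 Ptgs1 and 8 Hpgds UMIs on 1 P2ry12 UMI. The macrophage and monocyte gates themselves limit P2ry12, 1 of the 9 microglia markers, and so set the base of these ratios.

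On the leukotriene side, Alox5ap was found in all 4 myeloid classes. It had 1.40, 8.23 and 13.3 CPM in carcinoma cells; 1483, 1555 and 1708 CPM in the 3 neutrophil samples; 564, 641 and 779 CPM in macrophages; 690.2, 1002 and 1090.2 CPM in monocytes; and 434, 461 and 499.8 CPM in microglia. Neutrophils lay above all monocyte samples, and microglia below all macrophage samples. Within samples, macrophages were below monocytes in 7 of 7, by a log2 difference of -0.62, and above microglia in 7 of 7, by 0.58. T cells had 4.02, 34.6 and 102 CPM. The microglia mean was 468 ± 27.4 CPM (SD, n = 7).

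Alox5, whose product works together with that of Alox5ap, was sparse. It had 33.4, 98.9 and 151 CPM in the 3 neutrophil samples, from 18 UMIs in all; 0, 0.736 and 5.39 CPM in macrophages; 0, 2.08 and 12.1 CPM in monocytes; and 11.5, 21.2 and 32.2 CPM in microglia. In carcinoma cells 8 UMIs were counted in all. Neutrophils exceeded microglia in each of the 3 shared samples, and the lowest neutrophil value rests on 2 UMIs. Monocytes lay below microglia in 7 of 7 samples although the ranges overlapped. Endothelial cells held no Alox5 UMI.

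Ltc4s followed Ptgs1. It had 0.0913, 0.206 and 0.302 CPM in carcinoma cells, 4.30, 8.05 and 16.2 CPM in macrophages, 0, 0.464 and 1.34 CPM in monocytes and 181, 357 and 539 CPM in microglia; neutrophils held 2 UMIs. Microglia lay above every other sample, with a log2 difference of -8.22 for monocytes against microglia. Endothelial cells had 9.77, 38.6 and 52.4 CPM and lay above macrophages within 7 of 7 samples. The choroid plexus gate, 19 cells spread so thinly that no sample reached 10, held 127 Ltc4s UMIs, 5.58% of those in all singlets.

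**Figure D2:**
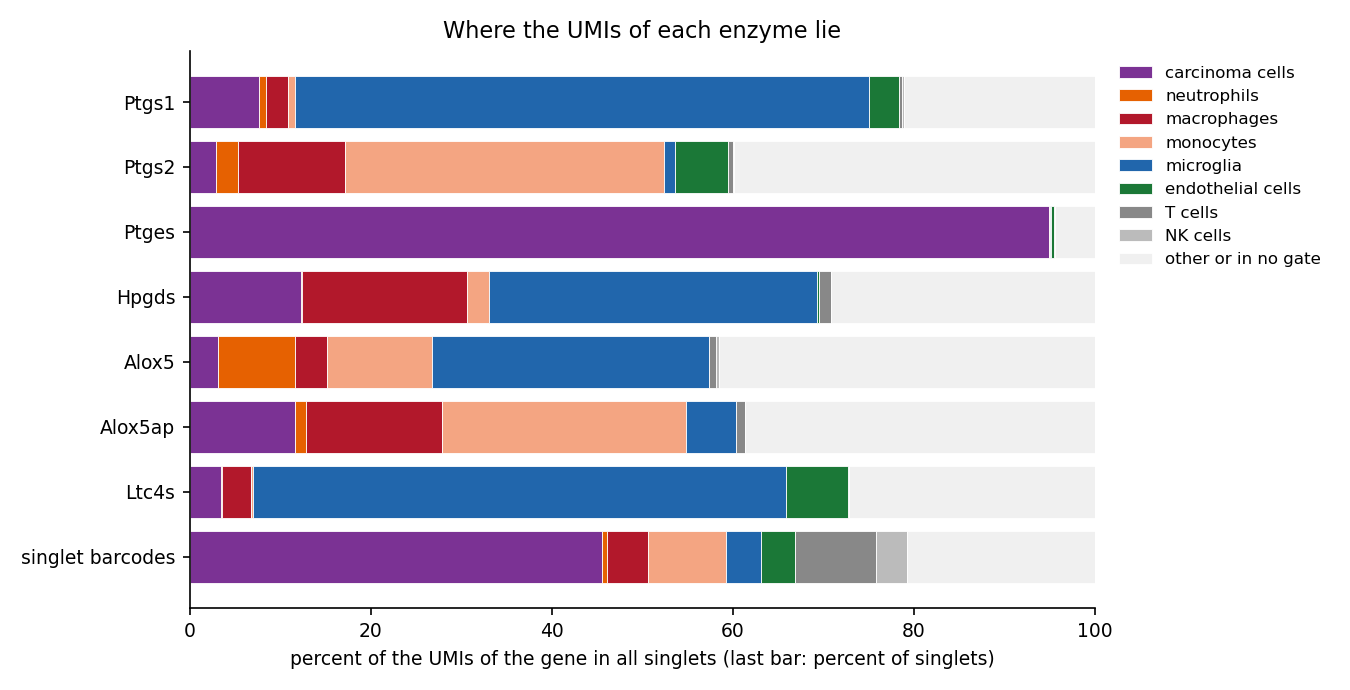
Percent of each gene's UMIs in all singlets that lay in each gated class, and in the last bar the percent of singlets in that class. Carcinoma cells were 45.5% of singlets and held 85.2% of all UMIs and 94.9% of Ptges UMIs; microglia were 3.87% of singlets and held 0.796% of all UMIs, 63.5% of Ptgs1, 58.9% of Ltc4s and 36.2% of Hpgds UMIs.

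Of all UMIs in singlets, carcinoma cells held 85.2%, macrophages 1.55%, monocytes 1.94% and microglia 0.796%, which is the base for the shares of single genes. Microglia held 63.5% of the 2440 Ptgs1 UMIs (95% exact interval 61.5 to 65.4), 58.9% of the 2276 Ltc4s UMIs (56.8 to 60.9), 36.2% of the 2731 Hpgds UMIs (34.4 to 38.05) and 30.6% of the 258 Alox5 UMIs (25.05 to 36.6). Macrophages held 18.2% of Hpgds UMIs. Monocytes held 35.3% of the 14695 Ptgs2 UMIs and 26.9% of the 31755 Alox5ap UMIs. Carcinoma cells held 94.9% of the 40457 Ptges UMIs. Cells in no gate, which include cells between the monocyte and macrophage gates, held 39.3% of Ptgs2 UMIs and 38.4% of Alox5ap UMIs.

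To compare detection per cell at 1 depth, every cell was thinned to 2000 UMIs. Ptgs1 was then detected in 0.473% of 846 monocytes, against 57.9% of 373 microglia, and in 0.118% of 845 T cells, which should lack it. Ptgs2 was detected in 67.5% of 40 neutrophils (50.9 to 81.4), 28.3% of 424 macrophages (24.1 to 32.8), 43.4% of monocytes (40.0 to 46.8), 6.17% of microglia (3.95 to 9.11) and 1.07% of T cells. Hpgds was detected in 12.97% of macrophages, 1.54% of monocytes and 42.9% of microglia. T cells had 1.78%, and NK cells 0 of 335, which allows up to 0.896% with a UMI by a floor of 3 counts. The monocyte share was thus not above that of T cells, but it was above that limit of NK cells. Ltc4s was detected in 1.18% of macrophages and 46.6% of microglia, and in 0 of 845 T cells, which allows a share of up to 0.355% with a UMI at this depth, by the floor of 3 counts; without thinning 2 of 867 T cells held one. Median depths before thinning were 9529 UMIs in monocytes, 7648 in microglia and 5321 in T cells, and the unthinned share of microglia with a Ptgs1 UMI had a median of 94.2% over samples. Cells under 2000 UMIs were left out, 6 of 46 neutrophils, 10 macrophages, 11 monocytes and 7 microglia.

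Alox5ap was detected in 92.5% of neutrophils (79.6 to 98.4), 65.3% of macrophages, 81.6% of monocytes and 57.9% of microglia, with 3.43% in T cells. Alox5 was detected in 17.5% of neutrophils (7.34 to 32.8), 0 of 424 macrophages, 0.355% of monocytes and 2.68% of microglia, and in 0 of 845 T cells. The 0 in macrophages allows a share of up to 0.708% with a UMI at this depth; without thinning 6 of 434 macrophages (1.38%) held one, and 26.1% of 46 neutrophils, 2.33% of monocytes and 17.1% of microglia. Ptges was detected in 16.2% of 4507 carcinoma cells (15.1 to 17.3) and in 1.54% of T cells, and stood at 0.472% in macrophages, 1.06% in monocytes and 0.268% in microglia, none above the T cells. In carcinoma cells Alox5ap (1.73%), Ptgs2 (0.222%) and Hpgds (0.178%) were each below the T cell share. For Alox5ap the carcinoma share lay above those of NK cells (3 of 335) and endothelial cells (2 of 357). For Ptgs2 it lay below those of NK cells (4 of 335) and endothelial cells (45 of 357). Hpgds was detected in 0 of 335 NK cells and 2 of 357 endothelial cells. Thinning sets 1 depth and does not make the share of free RNA equal between classes.

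**Figure D3:**
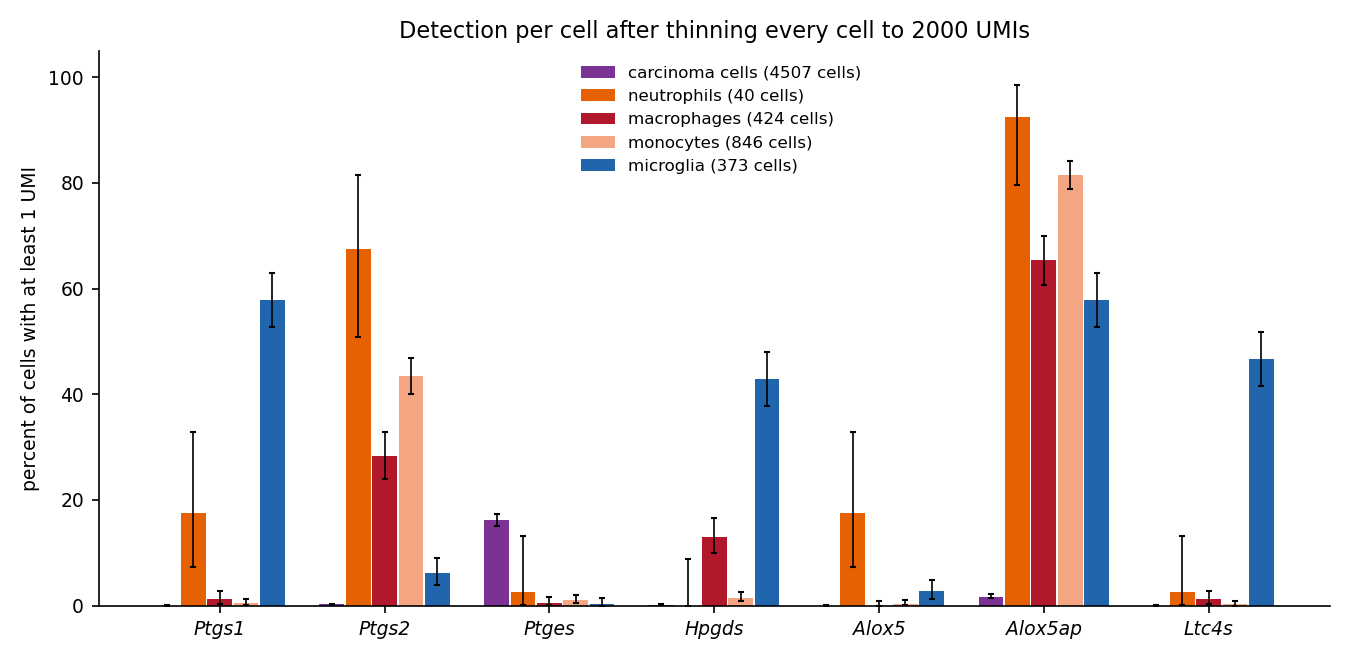
Percent of cells with at least 1 UMI of each gene (vertical axis) in 5 classes after every cell was thinned to 2000 UMIs; bars pool the cells of all samples with at least 10 cells and error bars are 95% exact binomial intervals, which cover counting error only. Alox5ap was detected in 57.9% to 92.5% of cells of the 4 myeloid classes, while Ptgs1, Hpgds and Ltc4s were detected mainly in microglia.

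Joint detection in single cells is given for pairs of members, with the product of their separate shares. Ptgs1 and Hpgds, the steps to prostaglandin D2, were both detected in 0 of 846 monocytes, against 87 of 373 microglia (23.3%, product 24.8%). Alox5ap and Ltc4s, on the way to leukotriene C4, were both detected in 0.118% of monocytes and 27.3% of microglia (product 27.01%), and Ptgs1 and Ltc4s in 29.5% of microglia (product 27.01%). Without thinning the shares of 380 microglia were 80.8% for Ptgs1 with Hpgds, 77.9% for Alox5ap with Ltc4s and 79.7% for Ptgs1 with Ltc4s. Ptgs2 and Alox5ap were both detected in 62.5% of 40 neutrophils, 17.2% of macrophages, 36.1% of monocytes and 3.75% of microglia, with products of 62.4%, 18.5%, 35.4% and 3.57%. Alox5 together with Alox5ap was found in 17.5% of neutrophils, 0.355% of monocytes and 1.88% of microglia. In neutrophils each of the 7 cells with Alox5 also had Alox5ap, and 37 of the 40 had Alox5ap. The joint shares move with depth, and the part of free RNA and of same-sample doublets in them was not tested.

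Monocytes and macrophages are joined by cells that carry markers of both. Over singlets with at least 60 such UMIs per 10000 and fewer than 8 of microglia markers, cells were placed by the share of macrophage markers among monocyte and macrophage markers, in 4 ranges of 25 points each; these are ranges and not types, with 173, 75 and 145 cells within 5 points of the 3 inner limits. Median Ptgs2 over samples was 675, 489.7, 383 and 167 CPM along the ranges, and Alox5ap 1016, 921, 742 and 662 CPM. Hpgds had medians of 4.67, 6.99, 31.4 and 52.2 CPM. In the 6 samples with all 4 ranges, the first range was above the last for Ptgs2 and Alox5ap in 6 of 6 and below it for Hpgds in 6 of 6. Alox5ap fell at each step in 5 samples and Ptgs2 in 3, and Hpgds rose at each step in 3. Ptgs1 had medians of 3.00, 0.868, 3.09 and 3.50 CPM and showed no order. Median depth also differed along the ranges, with 9248.5, 10462, 12602 and 12614 UMIs per cell.

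**Figure D4:**
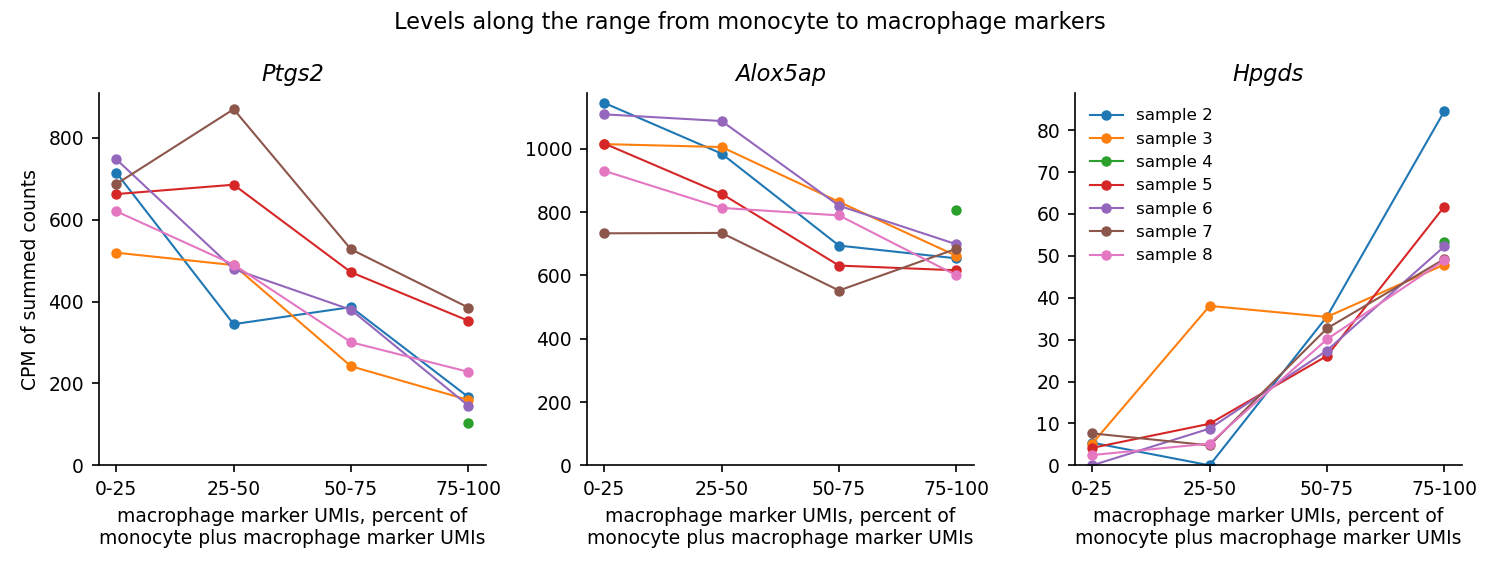
CPM of summed counts (vertical axis) of Ptgs2, Alox5ap and Hpgds in cells grouped by the percent of macrophage marker UMIs among monocyte plus macrophage marker UMIs (horizontal axis); a line joins the values of 1 hashtag sample with at least 10 cells in a range. Sample 4 appears in the last range only. Ptgs2 and Alox5ap were lower, and Hpgds higher, in the last range than in the first in 6 of 6 samples.

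Genes with the most similar pattern over the 32 class and sample sums of the 5 classes were named by Pearson's r of log2(CPM + 10) among 7697 genes, as a description; the sums share samples and classes. For Ptgs1 they were Sall3 (0.95), Ppp1r9a (0.94) and Itpr2 (0.94). For Ptgs2 they were Flot2, Prdx5 and Il1b (0.97 each), the last the gene of interleukin 1 beta. For Ptges they were Col6a2, Arhgdig and Pcolce2 (0.97 each). For Hpgds they were Itgb5, Blnk and Tmem119 (0.97 each), and Tmem119 is a gate marker of microglia. For Ltc4s they were Camk2n1 (0.98), Lrrc3 (0.98) and Slco2b1 (0.97), and for Alox5 they were Gm26740 (0.90), Chst15 (0.90) and Suco (0.88).

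The rest of the pathway was tested. Of 56 other genes, 21 were measured well enough between monocytes and microglia, and 5 were higher and 9 lower in monocytes (28.7% and 31.5% over all genes). The median log2 difference of these 21 was -0.42, against -0.05 over all genes. Of 5 genes of substrate release 4 were lower: Mgll, a monoacylglycerol lipase, had 1.65 ± 1.12 CPM in monocytes and 47.0 ± 17.7 CPM in microglia (log2 difference -4.26, SE 0.31, edgeR adjusted p = 1.38e-09). Daglb, a diacylglycerol lipase, had 35.6 ± 11.7 CPM in monocytes and 147 ± 15.2 CPM in microglia (log2 difference -1.99). The call of Pla2g4a among the 4 was lost under 7 alternatives, among them DESeq2, no low-count filter, doubled gates and leaving out sample 3, 5 or 7. Of 5 prostanoid synthases 4 were lower, led by thromboxane synthase, Tbxas1, with 17.6 ± 6.99 CPM in monocytes and 131 ± 34.5 CPM in microglia (-2.77, SE 0.18, adjusted p = 3.60e-10). The call of Ptges3 among the 4 was lost with no low-count filter, with doubled gates and at a minimum of 20 cells. Hpgd, which inactivates prostaglandins, had 13.8 ± 6.88 CPM in monocytes and 237 ± 70.2 CPM in microglia (-3.60, SE 0.17, adjusted p = 6.43e-12), and lower values in 7 of 7 samples. All SDs are over 7 samples.

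Of the 5 genes higher in monocytes 3 were receptors, and 1 of these, Ptger4, lost its call under 4 alternatives. Over all genes 28.7% were higher, and with so few genes no theme is drawn. Of 4 receptors tested 3 were higher: Ltb4r1, the high-affinity receptor of leukotriene B4, had 109.5 ± 14.4 CPM in monocytes and 3.47 ± 3.72 CPM in microglia (log2 difference 5.21, SE 0.31, edgeR adjusted p = 1.16e-10). Fpr2, the formyl peptide and lipoxin receptor, had 137 ± 53.9 CPM in monocytes and 7.71 ± 14.8 CPM in microglia (5.09), and Ptger4, a prostaglandin E2 receptor, 47.4 ± 13.9 CPM and 40.2 ± 20.3 CPM (0.73, adjusted p = 0.0177), with higher CPM in 4 of 7 samples; its call was lost with DESeq2 and without sample 5, 7 or 8. TMM scaling moved log2 differences of this comparison by 0.21 upwards relative to CPM. Cysltr1, a receptor of cysteinyl leukotrienes, did not pass, with 43.7 ± 15.6 CPM in monocytes and 55.7 ± 22.4 CPM in microglia. Cyp4f18, which breaks down leukotriene B4, was higher (136 ± 35.4 CPM in monocytes, 55.6 ± 38.5 CPM in microglia, 1.70).

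Between macrophages and microglia 19 of the 56 were tested, and 7 were higher and 8 lower in macrophages (26.2% and 28.4% over all genes). The median log2 difference was -0.13, against -0.03 over all genes. Hpgd had the largest difference of the list here, with 8.70 ± 5.87 CPM in macrophages and 237 ± 70.2 CPM in microglia (log2 difference -4.60, SE 0.29, edgeR adjusted p = 2.71e-09). Tbxas1 had 32.5 ± 10.3 CPM in macrophages and 131 ± 34.5 CPM in microglia (-1.89). Among the 8 lower genes the call of Ptges3 was lost under 10 alternatives, among them DESeq2 and leaving out sample 2, 4, 6, 7 or 8. That of Akr1b3 was lost without sample 8 and at a minimum of 20 cells, and its sign turned with doubled gates. The calls of Pla2g4a and Cbr1 were lost with doubled gates. Higher in macrophages were Cyp4f18, with 253 ± 80.5 CPM in macrophages and 55.6 ± 38.5 CPM in microglia (2.41, SE 0.32, adjusted p = 1.07e-05), Dpep2, a dipeptidase of leukotriene D4 conversion, with 31.1 ± 13.6 CPM and 3.62 ± 7.36 CPM (3.58), and Ltb4r1, with 44.7 ± 22.8 CPM and 3.47 ± 3.72 CPM (3.69). Fam213b, a prostamide synthase, was higher too (78.8 ± 30.2 CPM in macrophages, 33.5 ± 6.57 CPM in microglia, 1.09).

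Against monocytes, most of the other prostanoid synthases tested were called higher in macrophages, but the calls of Akr1b3, Ptges2 and Cbr1 among them were not stable. Of the member synthases, Hpgds was higher in macrophages in 7 of 7 samples. Ptges was lower in 7 of 7, on 22 UMIs in macrophages and 51 in monocytes. Of 21 genes tested 9 were higher and 4 lower in macrophages (19.9% and 20.2% over all genes), with a median log2 difference of 0.29, against 0.04 over all genes. Among the 9, Ptgr2, a gene of breakdown and transport, lost its call under 7 alternatives. Of 6 other prostanoid synthases 5 were higher, among them Fam213b (78.8 ± 30.2 CPM in macrophages, 34.9 ± 15.9 CPM in monocytes, log2 difference 1.15, SE 0.12, edgeR adjusted p = 1.51e-06), Tbxas1 (32.5 ± 10.3 CPM in macrophages, 17.6 ± 6.99 CPM in monocytes, 0.91) and Akr1b3, an aldose reductase with prostaglandin F synthase activity (88.5 ± 17.8 CPM in macrophages, 67.4 ± 9.19 CPM in monocytes, 0.29), whose call was lost under 9 alternatives, among them DESeq2 and leaving out sample 3, 4, 5, 6 or 8. The call of Ptges2 among the 5 (0.75) was lost with DESeq2, with no low-count filter, under the hashtag margin rule and without sample 2, 3, 6 or 7, and that of Cbr1 (0.88) without sample 8. Lower in macrophages were Fpr2 (-1.63), Ltb4r1 (-1.38), Hpgd (-0.99) and Lta4h (-0.63). The call of Hpgd was lost without sample 8 and without barcodes over 30000 UMIs. Pla2g15, a lysosomal phospholipase, had 46.4 ± 6.91 CPM in macrophages and 9.35 ± 5.81 CPM in monocytes (2.13, SE 0.19).

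In neutrophils, 3 samples of 13 to 18 cells, 11 genes were tested against monocytes, and 3 were higher and 1 lower (8.37% and 13.3% over all genes). The median log2 difference was -0.25, against -0.32 over all genes. Of 3 other leukotriene enzymes tested 2 were higher, and Mgst3, without a UMI in neutrophils, did not pass. Lta4h, which makes leukotriene B4, had 159 ± 89.2 CPM in neutrophils and 28.7 ± 8.01 CPM in monocytes (log2 difference 2.65, SE 0.51, edgeR adjusted p = 0.00140, n = 3). Mgst2, a microsomal enzyme that can conjugate leukotriene A4, had 184 ± 76.2 CPM in neutrophils and 9.63 ± 1.99 CPM in monocytes (4.32, SE 0.46, adjusted p = 7.11e-06). Fpr2 had 303 ± 38.8 CPM in neutrophils and 119 ± 53.7 CPM in monocytes (1.61). Cysltr1 had no UMI in neutrophils, against 54.0 ± 7.90 CPM in monocytes, at least 3.30-fold lower with a floor of 3 UMIs over the group. Without sample 7 the calls of Lta4h, Fpr2 and Cysltr1 were lost and that of Mgst2 was left, with 498 genes past the threshold in place of 979; without sample 6 the call of Cysltr1 was lost, with 395 genes past it. Ltb4r1 did not pass, with 226 ± 138 CPM in neutrophils and 104.8 ± 18.3 CPM in monocytes.

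Between carcinoma cells and macrophages 30 genes were tested, and 12 were higher and 14 lower in carcinoma cells (46.7% and 30.9% over all genes). The median log2 difference was -0.23, against 0.31 over all genes. All 4 receptors tested were lower, with Ptger4 at 0.199 ± 0.0529 CPM in carcinoma cells and 76.6 ± 18.9 CPM in macrophages (log2 difference -8.63). Pla2g4a, the cytosolic phospholipase that frees arachidonic acid, had 0.211 ± 0.130 CPM in carcinoma cells and 48.9 ± 9.86 CPM in macrophages (-8.05, SE 0.27, edgeR adjusted p = 1.20e-16). Of the other prostaglandin E synthases, Ptges2 (29.0 ± 2.11 CPM in carcinoma cells, 12.1 ± 3.70 CPM in macrophages) and the co-chaperone Ptges3 (341 ± 28.5 CPM in carcinoma cells, 155 ± 11.9 CPM in macrophages, 0.95) were higher. The call of Lta4h among the 12 was lost without sample 2 or 4 and at a minimum of 20 cells. Mgst2 was higher as well (245 ± 34.2 CPM in carcinoma cells, 9.62 ± 4.66 CPM in macrophages, 4.70, SE 0.14), whereas Tbxas1 (-7.96), Fam213b (-9.50) and Cyp4f18 (-9.63) were lower. None of the 6 other lipoxygenases passed the low-count filter in any of the 5 comparisons.

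**Figure D5:**
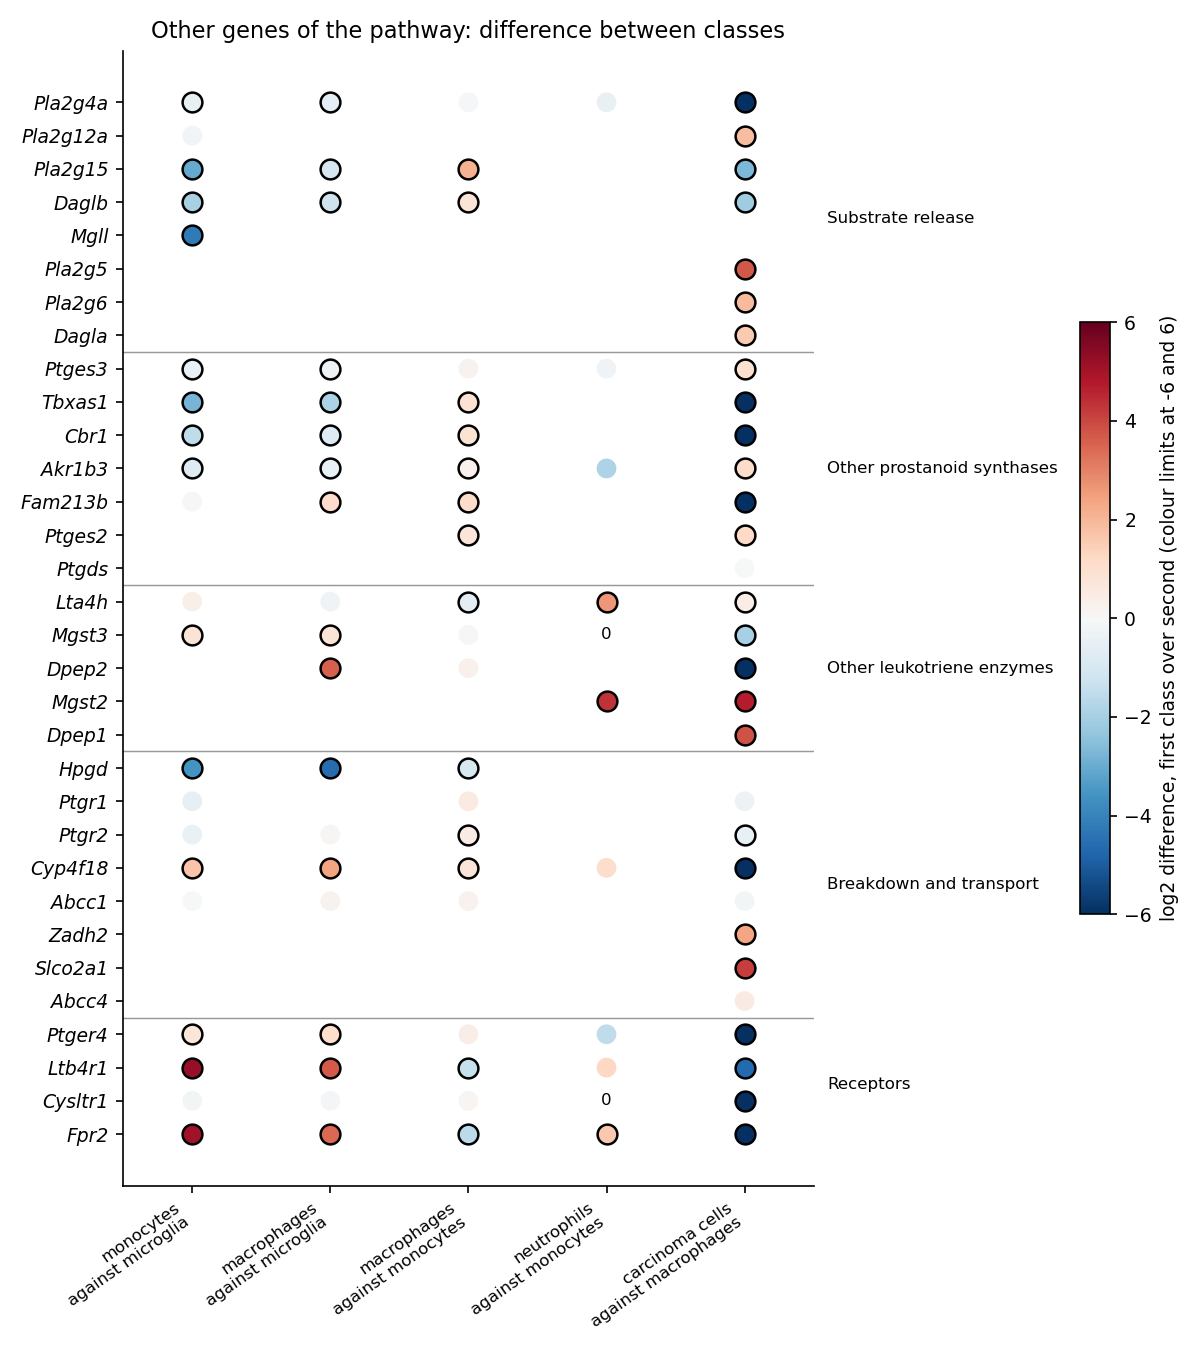
Log2 differences (colour) of the other pathway genes tested, by role, in 5 comparisons; a black ring marks edgeR adjusted p under 0.05, an empty place a gene not tested and 0 a gene without UMIs in the first class. Hpgd and Tbxas1 were lower in monocytes and in macrophages than in microglia, and Ltb4r1 and Fpr2 were higher.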

How the data were processed

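One joint CITE-seq capture of 8 hashed brain samples was analysed. The submitters deposited whole-number counts of unique molecular identifiers (UMIs) per feature and barcode, per the file headers a cell matrix of genes, antibody tags and hashtags; the submitters' processing notes name Cell Ranger 3.1, Seurat 3.1.1 and mm10, with no role given. The capture held 642058717 gene UMIs. Row and barcode names came from the 2 companion lists, and the hashtag reference was not used.

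A barcode was kept if it had 500 genes or more and no more than 15% of mitochondrial UMIs. Hashtags were called with HTODemux (Seurat 5.3.0, centred log ratio, quantile 0.99), which left 9896 singlets, 1712 doublets and 726 negatives; doublets and negatives were left out, and 2 cells of 1 sample in 1 droplet are not removed by this. Classes were gated on summed marker UMIs per 10000, with entry at 1 for carcinoma cells, 120 for neutrophils, 120 for macrophages, 30 for monocytes and 30 for microglia and upper limits on markers of other classes; thresholds were set after the marker distributions had been seen.

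The members, the pathway lists and the tests were chosen with earlier results of these data known. Counts summed per class and hashtag sample (at least 10 cells) were tested with edgeR 4.0.16 (quasi-likelihood, TMM, filterByExpr, hashtag sample as a block, Benjamini-Hochberg over all genes, threshold 0.05), in samples holding both classes. Blocking follows from the design, since every pair of sums shares 1 brain suspension; the deviations of same-numbered samples correlated between -0.065 and 0.37 over the 5 comparisons. TMM scaling moved log2 differences relative to CPM by -0.18 to 0.21. On simulated counts, the test recovered 100% of changes of 2 on the log2 scale in the 4 comparisons with 7 samples and 67.4% for neutrophils. Of changes of 1 it recovered 62.2% to 88.0% and 9.89% for neutrophils. The simulation used 1 fixed dispersion for every gene, no effect of the hashtag sample and the same base level in both classes. These shares hold for that setting only.

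Named were all members, and of the lists the passing genes with the largest and smallest change per role and comparison, up to 6 a role, with any gene at a class median of 50 CPM or more; of these a selection is printed. The genes most similar in pattern to Alox5ap are not reported here. Intervals are 95% exact (Clopper-Pearson) and, like the floor of 3 UMIs, cover counting error only. Alternatives were DESeq2 1.42.0, no low-count filter, no block, other gates, hashtag calls, cell minimums and thinning depths, and each sample left out in turn.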

Additional observations from a re-analysis of the deposited data

Results flagged for a closer look

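For 26 pairs of a member and a class with a median of at least 5 CPM, the highest and lowest sample were set against the others by Dixon's ratio, which flags about 1 in 20 groups by chance; 4 values stood apart. Ptgs2 in the microglia of sample 3 was 141 CPM (19 cells), against 12.3 to 49.9 CPM in the other 6 samples, and the marker values of those cells are given with the result. Ptges in the monocytes of sample 4 was 24.4 CPM (10 cells), against 2.42 to 7.30 CPM. Hpgds in the monocytes of sample 3 was 20.3 CPM (89 cells), against 0 to 8.34 CPM. Ptges in the NK cells of sample 2 was 21.1 CPM (30 cells), against 0 to 7.66 CPM. What set these samples apart was not tested.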

How the results depend on the processing

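Of 134 recomputed counts of genes past the threshold 127 stayed within 1.5 times the reported value. Without a low-count filter the monocyte against microglia comparison had 21 pathway genes past the threshold in place of 14, and with doubled gate thresholds macrophages against microglia had 10 in place of 15. For neutrophils against monocytes DESeq2 called 640 genes in place of 979, and with no replicate block (the hashtag sample left out of the model) 6 pathway genes passed in place of 4; without the block no other count moved by over 1.5 times. Leaving out each sample in turn gave 3419 to 4222 genes and 11 to 15 pathway genes for monocytes against microglia, 2886 to 3604 and 13 to 16 for macrophages against microglia, 2163 to 2842 and 9 to 13 for macrophages against monocytes, 395 to 719 and 1 to 5 for neutrophils against monocytes, and 8710 to 9054 and 26 to 28 for carcinoma cells against macrophages. The neutrophil counts were 395 genes without sample 6 and 498 without sample 7, when 1 pathway gene passed. The 20-cell minimum could not be applied to neutrophils. Akr1b3 in macrophages against microglia was 0.0288 in place of -0.51 with doubled gates, and 61 of 1003 recomputed pathway differences lost their call. Most often these were Ptges3 in macrophages against microglia (10 alternatives) and Akr1b3 in macrophages against monocytes (9). Pla2g4a in monocytes against microglia and Ptges2 and Ptgr2 in macrophages against monocytes followed (7 each). The cause was not tested. Of 321 recomputed member differences 319 moved by less than the spread between samples, as did 196 of 203 member levels. Many of these could hardly move, since fits without 1 sample share the other samples and some settings leave a class unchanged. The tally is therefore no measure of stability. Leaving out microglia with any Ms4a7 UMI, chosen after seeing the data, moved none of the 11 member differences, all of which involve microglia. Among levels it could change only those of the 7 members in microglia, and it moved none of them. Of 70 shares of cells with a UMI, 44 moved at another thinning depth. At 61 cells and 2886 UMIs a cell, neutrophil values are the least certain.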

Other observations

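Endothelial cells, which entered no comparison, also held genes of prostanoid synthesis and transport, given here as medians over 7 samples without a test. Prostacyclin synthase, Ptgis, stood at 77.7 CPM (9.77 to 85.8), Pla2g4a at 99.4 CPM (38.6 to 200.01), Mgll at 76.0 CPM (41.2 to 206) and the exporter Abcc4 at 126 CPM (73.5 to 156). The prostaglandin transporter Slco2a1 stood at 26.0 CPM (8.58 to 127), and Mgst3 at 79.4 CPM (42.3 to 116). 

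In the 2 samples with at least 10 mature dendritic cells, Ptger4, a prostaglandin E2 receptor, stood at 175 and 203 CPM, against 74.5 CPM as the median of macrophages, and Ptgs2 at 102 and 117 CPM. Neither difference was tested.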
